A study of Mus musculus with 12 samples.

Results

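Imprinted genes outside the Dlk1-Meg3 locus were followed in mouse cortex: 41 of the 54232 genes counted, at 19 loci. They were chosen by symbol from a list of mouse imprinted genes with the domain of Dlk1 and Meg3 left out, after the genotype comparison of these same counts was known, so their genotype differences are given as a description and not as a test. By textbook assignment, 23 are expressed from the paternal allele, 12 from the maternal allele, and for 6 the expressed allele depends on the transcript or tissue. These assignments may not hold in adult cortex and could not be checked here. The study compared cortex of mice homozygous for the Y446C allele of Tbl1xr1, a missense allele of a subunit of the NCoR and SMRT corepressor complexes made to model Pierpont syndrome, with cortex of wild-type mice. All 12 mice were C57BL/6J and 12 weeks old, without a treatment beyond genotype, and each genotype had 3 females and 3 males. The labels name no promoter, Cre or tissue restriction for the allele, and counts per gene hold no base calls in which it could be checked. The sources used here do not say how the allele was made, which litters the mice came from or which genotype their mothers and fathers had. Mice are named by the animal number in their labels (female wild type 2, 4 and 5, female mutant 1, 3 and 6, male wild type 8, 12 and 13, male mutant 7, 10 and 27), and these numbers pair nothing.

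An imprinted gene is transcribed mainly from the chromosome inherited from 1 parent. The choice is set by DNA methylation laid down in egg or sperm at a short imprinting control region, which then steers a cluster of neighbouring genes, often with a long noncoding RNA or a CTCF boundary between them. In brain, imprinted genes act in growth control, neuronal excitability, feeding and maternal care, and several are known for high levels in hypothalamus. These mice are of an inbred strain and the table gives counts per gene, so the parental alleles cannot be separated in these counts and every value below is the sum of both.

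The sequences below show the upstream windows of members that the results turn on, each taken from RefSeq on GRCm38.p6 and shortened to leave out annotated exons, in lower case, 5′ to 3′ on the strand of the gene. Capitals mark TGCCGC, or its reverse complement GCGGCA, the core letters bound by ZFP57, a zinc finger protein that keeps methylation at imprinting control regions. Zim1 is read at chr7:6696433-6696682 on the minus strand, and its last 18 bases lie in the first exon of the GENCODE model. The Peg3 stretch, chr7:6730432-6730577 on the minus strand, is the whole interval between the start of Peg3 and the start of Usp29, which are transcribed away from each other. Nnat is at chr2:157560008-157560077 on the plus strand, and Nap1l5 at chr6:58907127-58907261 on the minus strand.
Zim1: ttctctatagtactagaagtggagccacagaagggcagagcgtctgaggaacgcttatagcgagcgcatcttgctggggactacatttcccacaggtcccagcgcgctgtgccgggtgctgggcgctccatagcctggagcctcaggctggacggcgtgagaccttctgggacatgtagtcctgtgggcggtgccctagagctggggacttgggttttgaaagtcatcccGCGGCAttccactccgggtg
Peg3: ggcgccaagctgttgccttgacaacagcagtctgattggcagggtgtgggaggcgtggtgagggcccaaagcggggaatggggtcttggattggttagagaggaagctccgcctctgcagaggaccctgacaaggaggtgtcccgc
Nnat: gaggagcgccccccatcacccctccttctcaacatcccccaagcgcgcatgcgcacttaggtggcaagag
Nap1l5: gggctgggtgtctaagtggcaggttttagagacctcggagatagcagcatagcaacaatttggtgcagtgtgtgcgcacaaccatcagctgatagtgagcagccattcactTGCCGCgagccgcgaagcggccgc

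Zim1 and Nap1l5 each hold 1 match, and the Peg3 and Nnat stretches hold none. RefSeq gave starts for 33 of the 41 members, with 49 distinct windows of 250 bases upstream. TGCCGC, searched on both strands, lay in 9 of these 49 windows (18.4%), against 8.68% of the 32817 windows of all genes. Besides Zim1 and Nap1l5, a window of Zdbf2, Mcts2, Calcr, Copg2 and Plagl1 held it, as did 2 overlapping windows of Mest. GATGGC, the core letters of the factor YY1, lay in 3 member windows (6.12%), against 10.7% of all windows. The member windows held a median of 12 CpG dinucleotides, against 6 for all windows. These are counts of letters in short windows and say nothing of whether a factor binds there. No entry was found for Cdkn1c, Peg10, Sgce, H19, Impact, Peg13, Kcnk9 and Trappc9.

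Libraries of 11 mice held 21238427 to 32669138 counts, with 5.231 to 10.38% of counts from mitochondrial genes. Female mutant 3 stood apart: it held 3748515 counts, 31.62% of them mitochondrial, and had a median rank correlation of 0.921 with the other libraries, against 0.9877 or more for each of them. In that library 3 counts, taken as the floor for a count of 0, equal 1.16 CPM (counts scaled to TMM-adjusted library size), against 0.0861 to 0.137 CPM in the others, a floor for counting error only. The fold changes of members over both sexes are therefore given with and without female mutant 3. Slc17a7, the vesicular glutamate transporter of cortical excitatory neurons, was at 519 to 837 CPM in wild-type mice and 525 to 860.5 in the mutants other than female mutant 3, which had 193. Of the 10 cortical excitatory markers listed, Slc17a7 among them, 2 were higher and 8 lower in the mutants. Their median was -0.08 on the log2 scale (-0.11 without female mutant 3). EdgeR called 0 of these 10, and 0 had an unadjusted p under 0.05. They summed to 3659 to 4444 CPM in wild-type mice and 2900 to 4591 in mutants (from 3094 without female mutant 3). The part of excitatory neurons in the member values was not tested. Markers of tissue that borders the cortex varied. The 10 striatal markers were all lower in the mutants, with a median of -0.79 on the log2 scale (-0.88 without female mutant 3). The 7 markers of the basal forebrain were all lower too (median -0.80). In either list edgeR called 0, and 6 and 2 had an unadjusted p under 0.05, beside 3.96% of all genes. Without female mutant 3 these were 8 and 2, beside 7.46% of all genes. Striatal markers summed to 544 to 1883 CPM in wild-type mice and 280 to 1064 in mutants. With group means removed, Zim1 and this sum had r = -0.175 and rho = -0.182 over 12 libraries (exact permutation p = 0.665 and 0.653, adjusted p = 0.748 and 0.886 over 19 relations). Without the 2 libraries farthest from the median of Zim1, r was 0.356. As group means were removed, this cannot bear on the genotype difference. The part of striatal tissue in the values of Zim1 and the other members was not tested. Of 7 astrocyte markers, 5 were higher and 2 lower in the mutants, with a median of 0.18 on the log2 scale (0.20 without female mutant 3). EdgeR called 0 of them, 3 had an unadjusted p under 0.05 and 6 did without female mutant 3, and their sum was 1527 to 1749 CPM in wild-type mice and 1475 to 2064 in mutants. The part of astrocytes in the member values was not tested. In whole tissue, fewer cells of a type and less RNA per cell cannot be told apart.

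Wild-type cortex expressed most members. Of the 41, 35 had a mean of at least 1 CPM over the 12 libraries, 36 had a count in every library, and 38 passed the filter on low counts. The 3 that did not were Phlda2, with 1 count in each of 2 libraries and 0 in the rest, Peg12, with at most 6 counts, and Slc22a18, with at most 10. On a scale of CPM per kilobase of exon, Nap1l5, which encodes a nucleosome assembly protein of neurons, had the highest level in wild-type mice, 177 ± 22.9 (SD, n = 6). Snrpn, the small nuclear ribonucleoprotein at the Prader-Willi locus, followed at 88.1 ± 8.39, then Gnas, the stimulatory G protein alpha subunit, at 75.2 ± 3.95 and the noncoding RNA Peg13 at 71.6 ± 6.76. The ranges of Gnas (69.5 to 81.2) and Peg13 (64.1 to 81.1) overlapped, whereas the lowest Nap1l5 value, 152, lay above the highest of Snrpn, 105. Of the 10 highest members, 8 are paternally expressed. Ppp1r9a, encoding the actin-binding protein neurabin, was the highest of the members assigned to the maternal allele at 36.6 ± 5.54. The ubiquitin ligase Ube3a followed at 11.6 ± 1.09 and the potassium channel gene Kcnk9 at 10.6 ± 0.983. The Peg3 locus spread widely on this scale, with Peg3 at 47.9 ± 6.22, Usp29 at 5.04 ± 0.688 and Zim1 at 1.55 ± 0.296. Cdkn1c was at 2.44 ± 0.569, and the growth genes of the embryo H19 and Igf2 were near the bottom at 0.129 ± 0.0430 and 0.125 ± 0.0581.

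**Figure D1:**
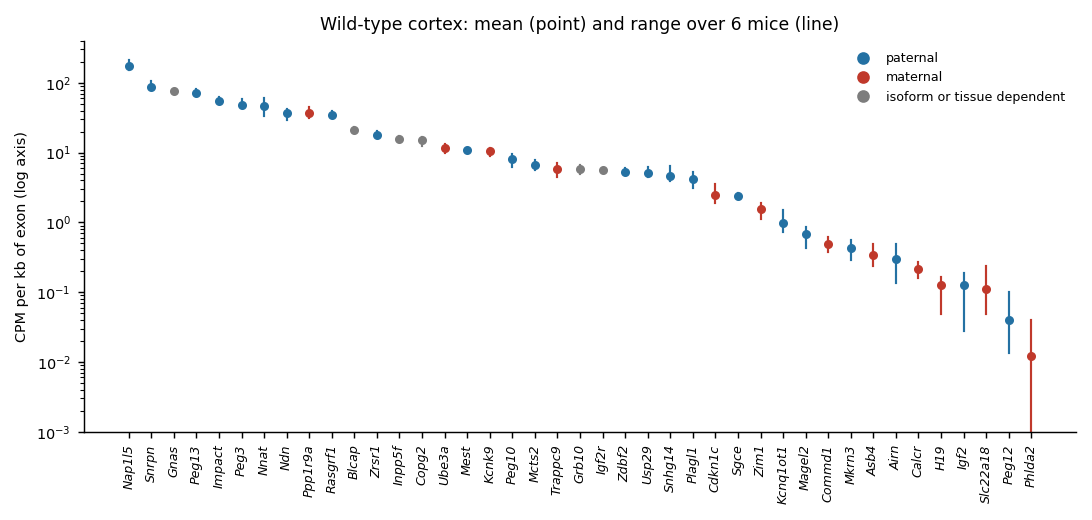
Levels of the 41 members in wild-type cortex, in CPM per kilobase of exon on a log axis, with the mean (point) and the range over 6 mice (line), coloured by the allele expressed; a value of 0 is drawn at the lower edge (Phlda2). Nap1l5 leads at 177, and the members span from there to Phlda2, which is at 0 in most libraries.

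Across both sexes the imprinted genes were mostly a little higher in the mutants. Of the 38 tested, 31 had a positive log2 fold change (mutant over wild type) and 7 a negative one, with a median of 0.17, where 47.6% of all 18016 tested genes were positive and their median was -0.01. None passed an adjusted p of 0.05 in edgeR's quasi-likelihood test, where 0.00555% of all genes did (1 gene). At an unadjusted p under 0.05, 7 of the 38 did, all of them higher, beside 3.96% of all genes and 1.5% of all genes in the higher direction. The 7 were Zim1, Cdkn1c, Peg10, Nnat, Zdbf2, Nap1l5 and Rasgrf1. Limma-voom called 0 members and DESeq2 called Zim1 (0.161% of all genes). Without female mutant 3, 29 were higher and 9 lower, with a median of 0.12, beside 50.9% of 18461 genes. Then 0 members passed edgeR's adjusted threshold (0.0108% of all genes did), 10 reached an unadjusted p under 0.05 (7.46% of all genes), and DESeq2 called Zim1 and Nnat (0.287% of all genes). Because the genes were chosen with this comparison known, nothing is read from these counts.

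How many members were higher depended on the scaling. With library totals in place of TMM the median of all genes moved to -0.08, and 25 members were higher and 13 lower, with a median of 0.07. Measured from the median of all genes, 32 of 38 members were higher with TMM, with RLE and with library totals alike. A change of scaling shifts all genes by nearly the same amount, so this sameness was nearly fixed in advance and nothing is read from it. Female mutant 3 had the highest of the 12 values for 19 members and the lowest for 9. Leaving it out turned 4 members from higher to lower (Kcnq1ot1, Mkrn3, Snhg14 and Ube3a) and 2 from lower to higher (Igf2r and Trappc9).

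**Figure D2:**
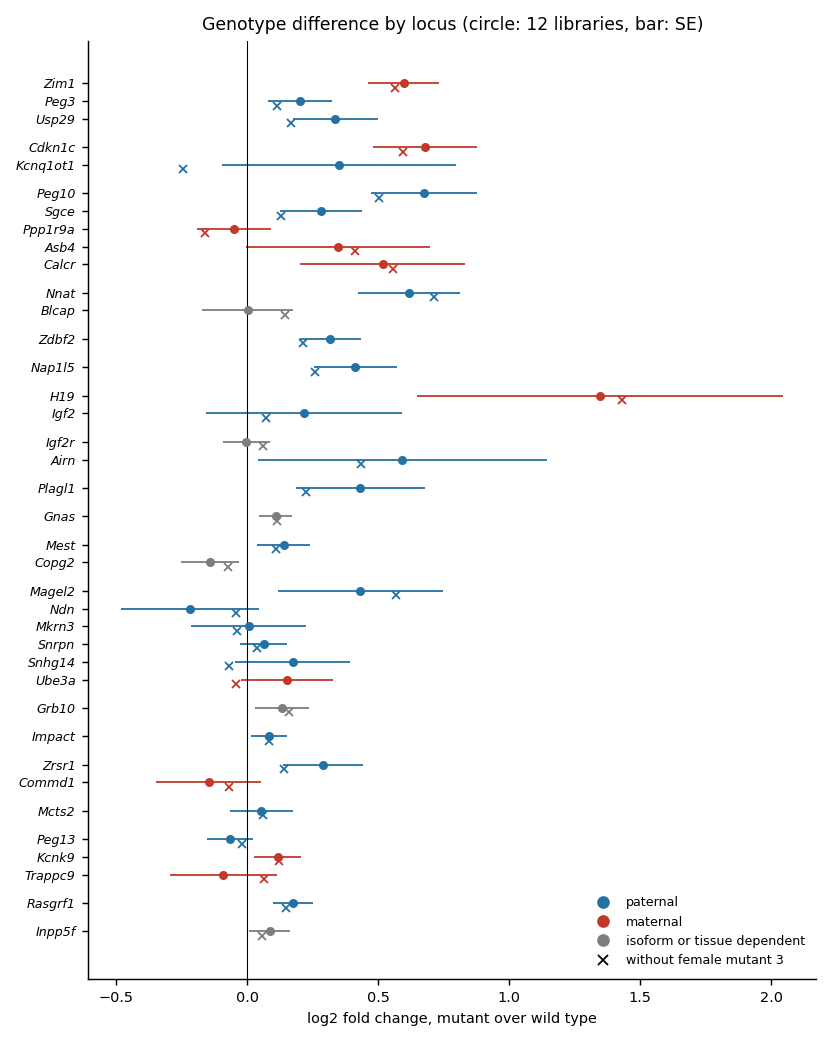
Log2 fold change of mutant over wild type for the 38 tested members, grouped by locus and coloured by the allele expressed; circles with bars are the fit to 12 libraries with its SE, crosses the fit without female mutant 3. Most circles lie to the right of 0, between -0.22 for Ndn and 1.35 for H19, and the cross of Kcnq1ot1 lies on the other side of 0 from its circle.

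Zim1, a maternally expressed zinc finger gene of the Peg3 locus (chr7:6671269-6696450, minus strand), showed the clearest separation. Female wild-type mice 2, 4 and 5 had 14.5, 11.9 and 9.14 CPM and female mutants 1, 3 and 6 had 19.2, 21.7 and 17.8. Male wild-type mice 8, 12 and 13 had 15.4, 10.6 and 13.6 CPM and male mutants 7, 10 and 27 had 21.0, 15.8 and 19.4. All 6 mutants lay above all 6 wild-type mice, with a small gap between male wild type 8 and male mutant 10. The mean was 12.5 ± 2.39 CPM in wild-type mice and 19.1 ± 2.16 in mutants (SD, n = 6), which is 0.60 on the log2 scale (SE 0.135), or 0.56 (SE 0.126) without female mutant 3. Zim1 was the only tested member whose genotypes did not overlap in the direction of higher mutant values, as 0.144% of all genes did, and no member lay wholly lower (0.294% of all genes). On library totals the groups did overlap, because female mutant 3 fell to 15.0 CPM while female wild type 2 stood at 15.4.

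Peg3 and Usp29 share the stretch between their starts that is printed above, and both are paternally expressed. Peg3, a zinc finger gene (chr7:6703892-6730431), had 694, 575 and 587 CPM in female wild-type mice, 781, 972 and 654 in female mutants, 783, 599 and 593 in male wild-type mice and 738, 659 and 620.3 in male mutants. The male mutants all lay within the range of the male wild-type mice, and the top value was that of female mutant 3. Its log2 fold change was 0.20 (SE 0.121), and 0.11 without that library. Usp29, of the ubiquitin-specific protease family (chr7:6730578-6967219, plus strand), had 98.4, 82.0 and 85.9 CPM in female wild-type mice, 116, 192 and 97.7 in female mutants, 113, 86.1 and 81.3 in male wild-type mice and 105, 101 and 93.1 in male mutants. Female mutant 3 again stood far above the rest, and every group overlapped another. Its log2 fold change of 0.34 (SE 0.163) was 0.17 (SE 0.0896) without female mutant 3. Zim1, by textbook assigned to the other parental allele, had the largest difference of the 3 and the smallest dependence on that library.

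Cdkn1c, at chr7:143458339-143461050 on the minus strand, encodes the cyclin-dependent kinase inhibitor p57Kip2 and is maternally expressed. It had 4.94, 3.87 and 4.33 CPM in female wild-type mice and 6.33, 12.4 and 10.3 in female mutants, which did not overlap. In males the wild-type mice had 7.18, 4.49 and 5.02 CPM and the mutants 7.51, 6.46 and 6.88, and here male wild type 8 stood above 2 of the mutants. The mean was 4.97 ± 1.16 CPM in wild-type mice and 8.31 ± 2.47 in mutants, a log2 fold change of 0.68 (SE 0.197), or 0.60 (SE 0.170) without female mutant 3. At 97 to 331 counts per library (32 in female mutant 3) this is a low level. Kcnq1ot1, the paternally expressed noncoding RNA of the same domain, showed no such difference. It had 86.4, 77.9 and 67.4 CPM in female wild-type mice, 81.1, 415 and 95.1 in female mutants, 140 in male wild type 8 with 81.0 and 96.4 in the other two, and 72.9, 70.3 and 65.6 in male mutants. One library, female mutant 3, gave it a log2 fold change of 0.35 (SE 0.447), which was -0.24 (SE 0.160) without it. Kcnq1ot1 exons lie opposite exons of Kcnq1, and no source used here gives the strand setting of the counting, so reads of the pair cannot be told apart.

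**Figure D3:**
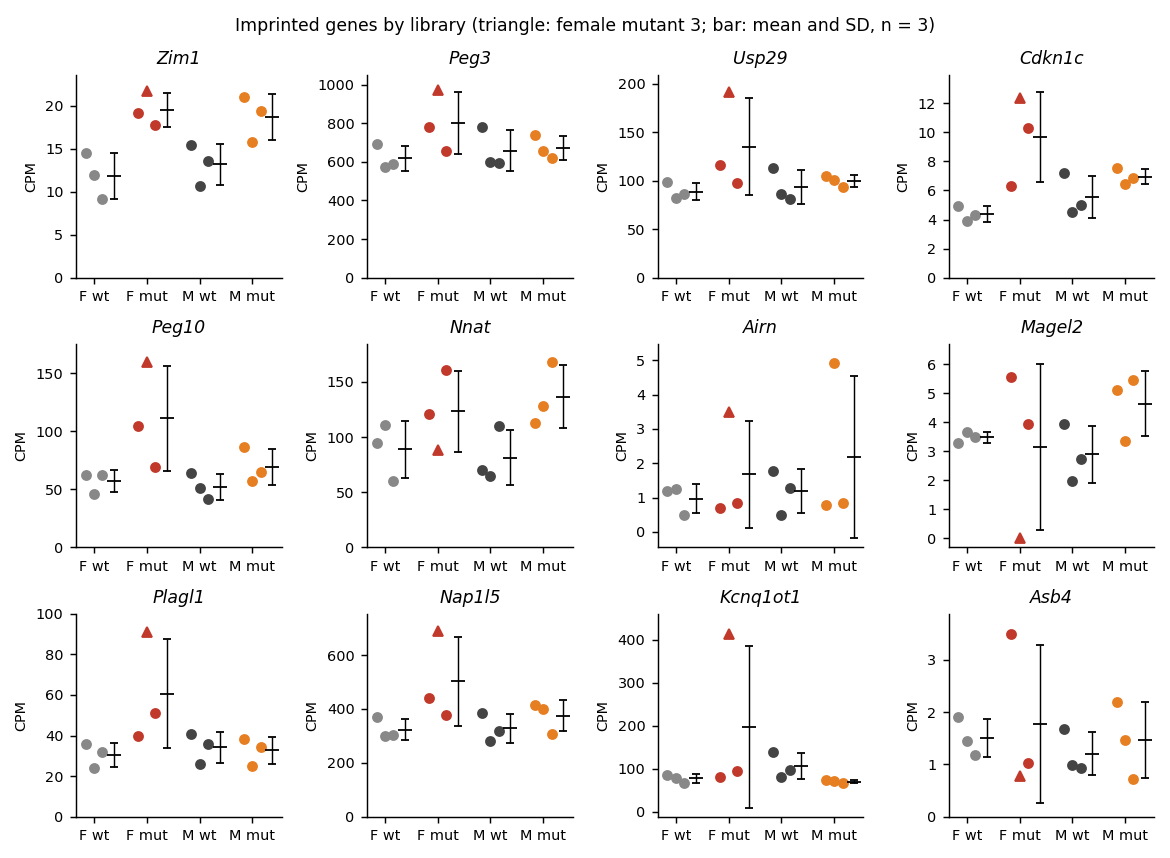
CPM of 12 members in each library by sex and genotype, with the mean and SD of 3 mice beside the points, all axes starting at or below 0; the triangle is female mutant 3. The Zim1 mutants lie between 15.8 and 21.7, above every wild-type mouse, while Kcnq1ot1 exceeds 140 in the triangle alone.

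Peg10, a paternally expressed gene derived from a retrotransposon and known for its role in placenta, had 62.0, 46.1 and 62.7 CPM in female wild-type mice, 105, 160 and 69.3 in female mutants, 63.9, 50.7 and 41.7 in male wild-type mice and 86.4, 56.9 and 64.8 in male mutants. The female groups did not overlap and the male groups did. Its log2 fold change was 0.68 (SE 0.203), or 0.50 (SE 0.146) without female mutant 3. Sgce, encoding epsilon-sarcoglycan, is transcribed away from Peg10 at the same control region (Peg10 at chr6:4747306-4760517, Sgce at chr6:4674350-4747207). Its log2 fold change was smaller, 0.28 (SE 0.157, and 0.13 without female mutant 3), with 54.6 CPM in female mutant 3 against 22.8 to 30.4 in the other 11 libraries. Of the maternally expressed genes around this pair, Ppp1r9a had a log2 fold change of -0.05 (SE 0.141), or -0.16 without female mutant 3. Asb4, an ankyrin repeat and SOCS box gene, had 1.90, 1.44 and 1.17 CPM in female wild-type mice, 3.50, 0.774 and 1.02 in female mutants, 1.68, 0.998 and 0.932 in male wild-type mice and 2.19, 1.46 and 0.730 in male mutants, so mutants held both its top and its bottom values. Calcr, the calcitonin receptor gene, ranged from 0.574 to 2.28 CPM, and its top value was also that of female mutant 1. Their log2 fold changes were 0.35 (SE 0.350) and 0.52 (SE 0.315), or 0.41 and 0.56 without female mutant 3. The 2 counts of each in female mutant 3 are below the floor there.

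Nnat encodes neuronatin, a small membrane protein of neurons, and lies in an intron of Blcap (Nnat at chr2:157560078-157562522, Blcap at chr2:157556362-157571274 on the other strand). It had 94.4, 111 and 60.4 CPM in female wild-type mice, 121, 87.9 and 161 in female mutants, 70.0, 64.6 and 109.6 in male wild-type mice and 113, 129 and 168 in male mutants. Only female mutant 3 lay within the wild-type range, and without it the lowest mutant, at 113 CPM, stood above the highest wild-type mouse, at 111. The wild-type mean was 85.1 ± 22.9 CPM (SD, n = 6) and that of the 5 other mutants 138 ± 24.8. The log2 fold change was 0.62 (SE 0.196), or 0.71 (SE 0.173) without female mutant 3. With that library left out, Nnat joined Zim1 as the members whose genotypes did not overlap (0.483% of all genes then). On library totals the Nnat groups still overlapped, with male mutant 7 at 116.7 CPM and female wild type 4 at 117.9. Blcap, whose expressed allele depends on the transcript, had a log2 fold change of 0.00 (SE 0.172, and 0.14 without female mutant 3), with 27.5 CPM in female mutant 3 against 58.6 to 74.3 in the others.

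Plagl1, a zinc finger transcription factor that restrains growth, had 35.7, 23.9 and 31.9 CPM in female wild-type mice, 39.9, 91.0 and 50.9 in female mutants, 40.7, 25.9 and 36.0 in male wild-type mice and 38.5, 25.1 and 34.3 in male mutants. The female groups did not overlap and the male groups lay over each other, and the log2 fold change was 0.43 (SE 0.245), or 0.22 without female mutant 3. Nap1l5 had 369, 298 and 303 CPM in female wild-type mice, 440.4, 690.4 and 379 in female mutants, 386, 281 and 317 in male wild-type mice and 415, 400.5 and 309 in male mutants. Its log2 fold change was 0.41 (SE 0.159), or 0.26 (SE 0.101) without that library. Again the female groups were apart, by the small gap from female wild type 2 to female mutant 6, and the male groups overlapped.

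Airn, the noncoding RNA antisense to the growth factor receptor gene Igf2r, was near 1 CPM: 1.18, 1.24 and 0.486 in female wild-type mice, 0.708, 3.48 and 0.838 in female mutants, 1.77, 0.499 and 1.29 in male wild-type mice and 0.774, 4.91 and 0.846 in male mutants. Female mutant 3 and male mutant 10 alone were high, the other mutants lay within the wild-type range, and the log2 fold change of 0.59 had an SE of 0.552 (0.43 without female mutant 3). Igf2r differed by 0.00 (SE 0.0888) on the log2 scale, or by 0.06 without that library. H19, the noncoding RNA beside Igf2, had the largest fold change of any tested member, 1.35 on the log2 scale with an SE of 0.699 (1.43 without female mutant 3), and it came from female mutant 1 at 2.79 CPM against 0 to 0.832 elsewhere. The 0 is that of female mutant 3, where it allows up to 1.16 CPM. Igf2 itself, insulin-like growth factor 2, was at 0.160 to 2.32 CPM, a log2 fold change of 0.22 (SE 0.375), or 0.07 without female mutant 3.

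The Prader-Willi and Angelman locus holds 7 members, of which 6 were tested. Magel2, a MAGE family gene of the paternal chromosome, had 3.29, 3.67 and 3.48 CPM in female wild-type mice, 5.54, 0 and 3.94 in female mutants, 3.95, 1.99 and 2.75 in male wild-type mice and 5.10, 3.36 and 5.46 in male mutants. The count of 0 in female mutant 3 allows up to 1.16 CPM, a bound below every other library. Its log2 fold change was 0.43 (SE 0.315), or 0.57 (SE 0.182) without that library. Ndn, encoding necdin of the same family, went the other way at -0.22 (SE 0.263, and -0.04 without female mutant 3), with 44.5 CPM in female mutant 3 and 75.4 to 179 elsewhere. Snrpn differed by 0.06 (SE 0.0889), and Mkrn3, a makorin ring finger gene, by 0.01 (SE 0.220) at about 1 CPM, or by 0.04 and -0.04 without that library. Snhg14, the long host transcript that runs antisense into Ube3a in neurons, and the maternally expressed Ube3a had log2 fold changes of 0.17 (SE 0.219) and 0.15 (SE 0.176), or -0.07 and -0.04 without it. Of the 6, 5 were higher with all libraries and 2 without female mutant 3, where Snhg14 had 263 CPM and Ube3a 474. Snhg14 and Ube3a overlap on opposite strands, and Snrpn shares exons with Snurf, so these counts are uncertain.

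The other members are given in brief, and of these Zdbf2 and Rasgrf1 had an unadjusted p under 0.05 over both sexes in edgeR. Zdbf2, a paternally expressed zinc finger gene that is known for feeding behaviour in newborn mice, had 60.2 to 76.9 CPM in wild-type mice (median 67.4) and 65.5 to 124 in mutants (median 82.3), a log2 fold change of 0.32 (SE 0.116), or 0.21 without female mutant 3. Rasgrf1, a Ras exchange factor of neurons, had 355 to 429 CPM in wild-type mice and 384 to 493 in mutants, a log2 fold change of 0.17 (SE 0.0770), or 0.15 without it. Zrsr1, a splicing factor retrogene inside Commd1, was at 0.29 (SE 0.152) while Commd1 was at -0.15 (SE 0.201), or 0.14 and -0.07 without it, and the 2 share exon sequence on opposite strands. Gnas, Mest, Grb10, Impact, Mcts2, Inpp5f and Kcnk9 lay between 0.05 and 0.14 on the log2 scale, and between 0.06 and 0.16 without it. Peg13, Trappc9 and Copg2 lay between -0.14 and -0.07, and between -0.07 and 0.06 without it. Gnas is a single gene with several imprinted transcripts, which gene counts do not separate.

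Sorted by the allele of the textbook assignment, both parental classes leaned the same way. Of the paternally expressed members, 20 of 22 tested were higher, with a median log2 fold change of 0.25. Of the maternally expressed, 7 of 10 were higher, with a median of 0.25. Among the 6 whose allele depends on transcript or tissue, 4 were higher and the median was 0.04. Without female mutant 3 the paternal class had 17 of 22 higher and a median of 0.12, and the maternal class 7 of 10 and 0.27. The maternal median moved most with female mutant 1, to 0.07 without it, since that mouse had the top values of Asb4, Calcr and H19.

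Split by sex, the members were higher more often in both. In females 31 of 38 were higher, with a median log2 fold change of 0.27 (46.5% of all genes were higher), and in males 28, with a median of 0.12 (51% of all genes). None was called in either sex by edgeR, DESeq2 or limma-voom. Of all genes, edgeR and limma-voom called 0% in each sex, and DESeq2 0.0333% in females and 0.0222% in males. At an unadjusted p under 0.05, 16 members differed in females (11.8% of all genes), 15 of them higher (7.98% of all genes), and 2 in males (2.78% of all genes). Of the 38, 22 were higher in both sexes and 1, Peg13, was lower in both. In females 12 members had groups of 3 that did not overlap in the higher direction (10.1% of all genes) and 3 in the lower (12.4%). In males 6 were higher without overlap (6.88%) and 1, Kcnq1ot1, lower (6.62%). Without female mutant 3 the median in females was 0.17, 30 were higher (48.1% of all genes) and 12 members reached an unadjusted p under 0.05, beside 9.41% of all genes.

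The difference between the sexes was itself tested as an interaction, which called 0 members and 0% of all genes in edgeR. DESeq2 (0.0222% of all genes) and limma-voom (0%) called 0 members too, and 5 members had an unadjusted p under 0.05, beside 7.67% of all genes. Those 5 were Kcnq1ot1 (1.32 in females and -0.60 in males on the log2 scale), Plagl1 (0.94 and -0.07), Zrsr1 (0.60 and -0.02), Snrpn (0.24 and -0.11) and Ube3a (0.49 and -0.18). Each of the 5 had the top value of the female mutants in female mutant 3 apart from Snrpn, whose top was female mutant 6. Without that library the female values were 0.19 for Kcnq1ot1, 0.57 for Plagl1, 0.33 for Zrsr1, 0.22 for Snrpn and 0.13 for Ube3a, and 6 members had an unadjusted p under 0.05 for the interaction, beside 10.6% of all genes, with 0 called. Zim1 was 0.70 (SE 0.196) in females and 0.50 (SE 0.190) in males.

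Male and female cortex were compared in these genes too, a comparison that did not enter their choice. Of the 38, 15 were higher and 23 lower in males. Log2 differences ran from -0.54 for H19 to 0.65 for Airn, both of low counts (-0.65 and 0.85 without female mutant 3). All 5 members of the Peg10 locus were lower in males, with a median of -0.36 (-0.22 without female mutant 3). No member passed the adjusted threshold for sex in edgeR, DESeq2 or limma-voom, beside 0.0389% of all genes in edgeR and in limma-voom (7 genes) and 0.0668% in DESeq2. At an unadjusted p under 0.05 there were 2 members, beside 1.77% of all genes. Zdbf2 was lower in males, at 68.7 ± 8.74 CPM against 83.6 ± 21.1 in females (SD, n = 6), a log2 difference of -0.26 (SE 0.116, adjusted p = 0.897 in edgeR). Kcnk9 was higher in males, at 145 ± 17.6 against 126 ± 10.8 CPM in females, a log2 difference of 0.19 (SE 0.0895, adjusted p = 0.897). Next was Peg10 at -0.39 (SE 0.202, adjusted p = 0.897), 60.7 ± 15.2 CPM in males and 84.1 ± 41.8 in females. Without female mutant 3 the log2 differences were -0.16 for Zdbf2, 0.18 for Kcnk9 and -0.22 for Peg10.

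Whether neighbours vary together from mouse to mouse, apart from genotype and sex, was asked of 19 pairs with the mean of each group removed from log2 CPM and the labels permuted exactly within groups (two-sided, Benjamini-Hochberg over the 19). Of the 19 pairs, 15 of which join members and 4 a member with a marker list, 3 had an adjusted p under 0.05: Peg3 with Usp29, Nnat with Blcap, and Zim1 with hypothalamic markers. Zim1 and the hypothalamic markers had r = 0.864 and rho = 0.846 (exact permutation p = 0.0054 and 0.00386, adjusted p = 0.0342 and 0.0244). Without the 2 libraries farthest from the median of Zim1, r was 0.854, as it was without female mutant 3 (exact permutation, adjusted p = 0.0440). Among 76 relations of members with these markers or the mitochondrial share, it missed the threshold (exact permutation, adjusted p = 0.0684). Peg3 with Usp29 and Nnat with Blcap were not among those 76. The marker sums fell into 2 sets, so the shape of the relation is not read. Peg3 and Usp29 moved together most closely, with Pearson's r = 0.937 and Spearman's rho = 0.874 over 12 libraries (each exact permutation p = 0.000772, the smallest these permutations can give, adjusted p = 0.0147). Without the 2 libraries farthest from the median of Peg3, r was 0.906, and without female mutant 3 it was 0.972 (exact permutation, adjusted p = 0.0440). Nnat and Blcap had r = 0.643 and rho = 0.867 (exact permutation p = 0.00231 and 0.00309, adjusted p = 0.0220 and 0.0244). Without the 2 farthest libraries r was 0.696, and without female mutant 3 it was 0.915. These 2 pairs of members were seen over mice of 1 strain whose libraries also differ in depth and in the tissue taken. With the mitochondrial share, r was 0.731 for Peg3, 0.911 for Usp29, -0.577 for Nnat and -0.989 for Blcap. Adjusted p over 76 relations was 0.128, 0.134, 0.163 and 0.0684 by exact permutation. With the summed hypothalamic markers, r was 0.824 for Peg3, 0.622 for Usp29, -0.198 for Nnat and -0.300 for Blcap. Adjusted p over the same 76 was 0.0847, 0.151, 0.743 and 0.662 by exact permutation. Of 38 members, 29 had r above 0 with this sum, and 5 had an unadjusted exact permutation p under 0.05. The same count over all genes was not made. Whether the pairs hold apart from that share or this sum was not tested.

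The other pairs missed the adjusted threshold over all libraries. Snhg14 and Ube3a had r = 0.932 (exact permutation p = 0.0116, adjusted p = 0.0528) and 0.723 without female mutant 3, and their overlap on opposite strands would give shared reads if strand was not used. Peg13 and Kcnk9, assigned to opposite parental alleles at 1 locus, ran against each other after TMM scaling, with r = -0.684 (exact permutation p = 0.0139, adjusted p = 0.0528) and -0.826 without female mutant 3 (adjusted p = 0.0440). On library totals the sign was reversed, with r = 0.406. Without female mutant 3 the mitochondrial share of counts had r = 0.944 with Peg13 and -0.657 with Kcnk9 (-0.430 and -0.0956 over all libraries). Zrsr1 and its host Commd1 had r = -0.909 (exact permutation p = 0.0293, adjusted p = 0.0788), and -0.554 without female mutant 3. Zim1 and Peg3 had r = 0.655 (exact permutation p = 0.0332, adjusted p = 0.0788). On library totals 0 of the 19 pairs passed, with r = 0.737 for Peg3 and Usp29 and 0.801 for Nnat and Blcap (adjusted p = 0.176 and 0.0733 by exact permutation).

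Markers of the hypothalamus varied between libraries. The 14 markers summed to 6.86 to 46.4 CPM in wild-type mice and 6.46 to 42.8 in mutants. Of the 9 that could be tested, 4 were higher and 5 lower in the mutants, and Kiss1 was at 0 in all libraries. The libraries fell into 2 separate sets, so the correlation with Zim1 given above says nothing of its shape. In the first set, female wild type 2, female mutants 1 and 3, male wild type 8 and male mutant 7 had sums of 29.8 or more. The other 7, the second set, had 15.3 or less. Most of the sum in the first set was Pmch, the peptide of melanin-concentrating hormone neurons, at 16.6 to 38.3 CPM. In each of the 4 groups the library or libraries of the first set had the highest Zim1. Among the libraries of the second set, Zim1 was 9.14 to 13.6 CPM in the 4 wild-type mice and 15.8 to 19.4 in the 3 mutants, and in the first set 14.5 and 15.4 in wild-type mice and 19.2 to 21.7 in mutants. The genotypes of Zim1 did not overlap over all libraries, so this order holds in any split. It says nothing of the part of hypothalamic tissue in the difference. With the log2 sum of these markers as a further term, added after the data were seen, the log2 fold change of Zim1 was 0.56 (SE 0.0935), of Cdkn1c 0.66, of Nnat 0.63 and of Peg10 0.56, and edgeR called 0 members (0.00555% of all genes), with 6 at an unadjusted p under 0.05 (3.65% of all genes).

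**Figure D4:**
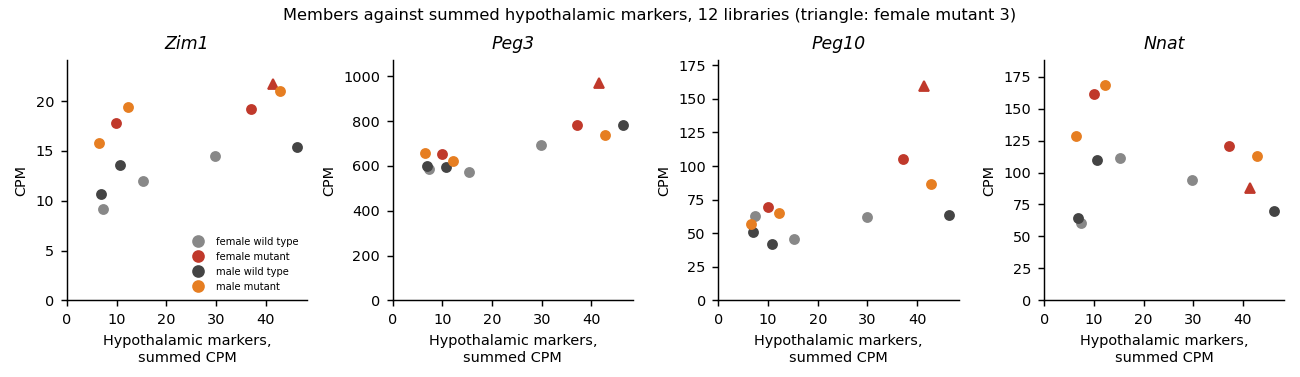
CPM of Zim1, Peg3, Peg10 and Nnat (y axes) against the summed CPM of 14 hypothalamic markers (x axis) in 12 libraries, coloured by sex and genotype, with female mutant 3 as a triangle. The libraries form 2 sets, at 15.3 or less and at 29.8 or more. Zim1 is higher in mutants than in wild-type mice within each, as in any split, since its genotypes do not overlap over all 12 libraries.

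The mitochondrial share also moved with members. It was highest in female mutant 3 and, among the other libraries, in male wild type 8 (10.38%), which had the top wild-type value of 20 tested members, among them Zim1, Peg3, Usp29, Cdkn1c and Peg10. As the share was 31.62% in female mutant 3, a term for it mostly sets that library apart. The fit below is therefore not separate from leaving that library out. With this share as a further term, also added after the data were seen, Zim1 was at 0.55 (SE 0.122), Nnat at 0.75 (SE 0.160), Cdkn1c at 0.56 (SE 0.150), Peg10 at 0.46 (SE 0.124) and Kcnq1ot1 at -0.29 (SE 0.103) on the log2 scale. Of the 38, 30 were then higher, edgeR called 0 (0.0111% of all genes) and 11 had an unadjusted p under 0.05, beside 9.77% of all genes. With group means removed, 18 of 38 members varied with the share at an unadjusted exact permutation p under 0.05 (9 without female mutant 3). The same count over all genes was not made, so nothing particular to imprinted genes is read from it. After adjustment, 0 of 76 relations of members with the share or with the hypothalamic sum passed.

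Genes that set or keep imprints were listed apart from the members, 28 of them, among them the DNA methyltransferases, Uhrf1, Trim28, Zfp57 and Ctcf. Of 25 tested, 18 were higher and 7 lower in the mutants, with a median of 0.07 on the log2 scale (0.01 without female mutant 3), and edgeR called 0, with 0 at an unadjusted p under 0.05. The 3 of smallest p were Dnmt3a, the de novo DNA methyltransferase, at -0.14 (SE 0.0712), Uhrf1, which recruits maintenance methylation, at -0.30 (SE 0.177), and Arid4a, a chromatin protein, at 0.41 (SE 0.256). Dnmt3a had 109 ± 4.19 CPM in wild-type mice and 99.1 ± 7.77 in mutants. Arid4a was 0.12 without female mutant 3, whose summed level of the list, 2980 CPM, stood above the 1775 to 1981 of the others.

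A further 34 imprinted genes that are no members, many of them imprinted in placenta, gave 26 tested genes, of which 13 were higher and 13 lower with a median of 0.00. EdgeR called 0 of them and 1 had an unadjusted p under 0.05 (3 without female mutant 3): Slc22a3, an organic cation transporter gene near Igf2r, at 2.17 ± 0.683 CPM in wild-type mice and 1.14 ± 0.626 in mutants, a log2 fold change of -0.76 (SE 0.300). Next were Osbpl5 at -0.28 (SE 0.171) and Pon3 at -0.31 (SE 0.196). Within 250 kb of the members at the Peg3, Cdkn1c, Peg10 and Snrpn loci, 32 other annotated genes were tested, of which 23 were higher and 9 lower with a median of 0.09. Without female mutant 3, 11 were higher and 21 lower, with a median of -0.06. EdgeR called 0, and 1 had an unadjusted p under 0.05: Pdk4, a kinase of pyruvate dehydrogenase beside Peg10, at 0.27 (SE 0.109), with 10.9 ± 1.26 CPM in wild-type mice and 13.4 ± 2.46 in mutants. Gm43294 was at -0.53 (SE 0.249), and Smim17, beside the Peg3 locus, at 0.28 (SE 0.133). Near Snrpn 11 of 12 neighbours were higher, with a median of 0.24, but 3 of 12 without female mutant 3, with a median of -0.15. Most of these 12, which are among the 32, are provisional transcript models. Among them 9330162G02Rik had 622 CPM in female mutant 3 and 251 in male wild type 8, where Snhg14 too was highest of its genotype. Whether they are separate from the transcripts of the members was not tested, so they are not read as 12 independent genes. Near Peg3 6 of 8 were higher, with a median of 0.05, and 3 of 8 without that library, with a median of -0.02.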

How the data were processed

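Total RNA of frozen cortex was prepared with TriReagent and a column kit, and libraries of the Kapa mRNA kit were sequenced on a NovaSeq, per the labels' protocols. Trimmomatic 0.36, HISAT2 2.1.0, HTSeq 0.11 and Cufflinks, without a version, and the build GRCm38.p6 are named in the submitters' processing notes. The authors deposited 1 table of raw counts, with a row per gene and a column per mouse. No source used here names the strand setting or the annotation release. Counts of genes with exons on opposite strands are uncertain, which touches 16 members.

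Identifiers were matched to GENCODE M21 (54165 of 54232). The filter filterByExpr over the 4 groups kept 18016 genes (18461 without female mutant 3). After TMM scaling, a quasi-likelihood model in edgeR 4.0.16 (R 4.3.3) had terms for sex and genotype, or 1 mean per group for the contrasts within a sex and the interaction. Benjamini-Hochberg adjustment ran over every tested gene, with calls at 0.05. CPM uses TMM-scaled totals, and log2 CPM a prior count of 2. Levels per kilobase divide CPM by the union of a gene's exons. Counts of the same group differed by more than sampling noise (chi-square per degree of freedom 9.01 to 153). Labels do not say that the mice came from separate litters, so p-values measure the spread between these animals. The scripts were tested on simulated data.

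The members and lists were chosen with earlier results of these data known. Values of every library are given for the Peg3 locus, Cdkn1c and the 8 further members of largest absolute change with a mean of at least 1 CPM, and the 3 genes of smallest p are named from each other list, among flanking genes and for sex. Other members are named to account for each, and values of theirs were seen before. Alternatives were DESeq2 1.42.0, limma-voom (limma 3.58.1), RLE and library totals, other filters, other terms and leaving out each library, with the markers and mitochondrial share added after the data were seen.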

Additional observations from a re-analysis of the deposited data

Results flagged for a closer look

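Within a genotype, 14 single values of members stood apart from the other 5 mice, with a gap to the nearest above 0.625 of the whole range. Of 76 groups looked at, chance flags about 1 in 20. Female mutant 3, the shallow library with the high mitochondrial share, gave 11 of the 14. Its values were the highest of the mutants for Usp29 (192 CPM), Kcnq1ot1 (415), Sgce (54.6), Zdbf2 (124), Nap1l5 (690.4), Igf2 (2.32), Snhg14 (263), Ube3a (474) and Zrsr1 (164), and the lowest for Blcap (27.5) and Trappc9 (16.6). Male wild type 8, with the highest mitochondrial share of the other libraries, had the highest wild-type values of Cdkn1c (7.18 CPM) and Snrpn (226). Female mutant 1 had 2.79 CPM of H19.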

How the results depend on the processing

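No paired analysis was possible because each animal number occurs in 1 group. DESeq2 called 1 member and 29 genes of all, and without female mutant 3 it called 2 members and 53 genes, with 11 members at an unadjusted p under 0.05 (7.19% of all genes). With the mitochondrial share as a term edgeR called 2 genes of all and 11 members reached an unadjusted p under 0.05 (9.77% of all genes). On library totals 0 genes were called, 0 members had mutants wholly higher and 0 pairs passed in place of 3, Zim1 with hypothalamic markers included. On that scale Gnas, Impact and Rasgrf1 moved to 0.02, -0.01 and 0.08. Leaving out 1 library each gave 0 to 2 genes called over both sexes, 5 to 11 members at an unadjusted p under 0.05 (11 without male wild type 8, beside 5.38% of all genes, and 2.81 to 7.46% of all genes over these fits), a maternal median log2 fold change of 0.0697 (without female mutant 1) to 0.36 and 1 to 3 members wholly higher (0.2 to 0.488% of all genes). These were 2 without female mutant 3, female wild type 4 or male mutant 10, and 3 without male wild type 8. The cause was not tested. Over 24 settings 22 of 38 members kept their sign and 16 changed it in at least 1. Zim1 kept it, from 0.52 to 0.66, with adjusted p from 0.0148 to 0.9998, and under 0.05 in DESeq2 alone. Members at about 1 CPM rest on few counts, and in female mutant 3 a level under 1.16 CPM could not be told from 0.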
